A study of Mus musculus with 12 samples.

Results

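The replication histone genes encode the H1, H2A, H2B, H3 and H4 proteins that package newly copied DNA, and they were followed here in poly(A)-selected RNA of differentiating mouse embryonic stem cells. Members were the loci of the study's assembled transcript annotation that hold an annotated transcript (class code = or j) of a gene named Hist1h, Hist2h, Hist3h or Hist4h. The rule used names and annotation only, and it found 66 loci among the 80012 loci with counts. The cells carry an EGFP cassette at the start site of 1 gene, Eomes, which drives the reporter, and all 3 groups came from this single reporter line, labelled C57BL/6. ESC are undifferentiated cells at day 0, grown on mouse embryonic fibroblast feeders. Eo- and Eo+ are EGFP-negative and EGFP-positive cells sorted at day 3 from embryoid bodies formed in hanging drops. Each group had 4 libraries, numbered 1, 2, 5 and 6 in all groups, from 4 differentiation sets.

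Between 648413022 and 837308168 counts fell on loci in each library, so 3 counts, taken here as the floor of detection, equalled 0.00353 to 0.00470 CPM, the counts scaled to library size. Floors and counts of this kind cover counting error only. Eomes itself averaged 46.4, 136 and 530 CPM in ESC, Eo- and Eo+ cells. All 6 mesendoderm markers were higher and all 6 pluripotency markers lower in Eo+ than in ESC, as were 4 of 4 tested neuroectoderm markers. Of the 9 tested feeder fibroblast markers 9 were lower in Eo+ and 7 lower and 1 higher in Eo- than in ESC; their summed level spanned 156 to 435 CPM in ESC, 32.4 to 41.8 CPM in Eo- and 37.4 to 73.9 CPM in Eo+ libraries, and no marker of the 10 was at 0 in any group. The part of these feeder transcripts in the differences from ESC given here was not tested. In bulk RNA fewer cells of a type and less RNA per cell cannot be told apart.

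Replication histone genes are transcribed mainly in S phase. Most of their mRNAs are the only metazoan mRNAs that end without a poly(A) tail: the transcript is cut just past a short conserved stem-loop, which the stem-loop binding protein SLBP holds. Some histone genes also make transcripts that run on to an ordinary polyadenylation signal, and those forms are known from cells that leave the cycle. Poly(A) selection therefore sees only a part of the output of these genes, and the levels here do not measure the tail-less mRNAs. Whether some tail-less mRNA was carried into the libraries was not tested.

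The stem-loop was sought as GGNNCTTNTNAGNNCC on the sense strand of GENCODE M21 transcripts (GRCm38). It was found in 44 of the 70 histone genes in the member loci, all of which matched by transcript identifier, against 314 of all 141767 transcripts (0.221%). It began 21 to 58 bases past the stop codon, with a median of 31. The letters were not found in the annotated transcripts of the remaining genes, Hist2h2be, Hist1h2bc and Hist1h1a among them, which says nothing of sequence past the annotated ends. The 44 genes used 8 different stem-loops, of which 24 genes shared the first one printed here. The following 5 are shown because their loci carry results given further on, with the 16-base stem-loop in capitals and 5 bases on each side, from the sense strand of the transcript.
Hist1h1c: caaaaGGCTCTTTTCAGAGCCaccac
Hist3h2ba: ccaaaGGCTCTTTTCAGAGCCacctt
Hist1h2ae: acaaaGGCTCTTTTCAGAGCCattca
Hist1h3c: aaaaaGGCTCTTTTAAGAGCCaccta
Hist1h4i: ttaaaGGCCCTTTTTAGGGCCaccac

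The capitals lie at chr13:23739512-23739527 (plus strand) in Hist1h1c, chr11:58949349-58949364 (plus) in Hist3h2ba, chr13:23570668-23570683 (minus) in Hist1h2ae, chr13:23745047-23745062 (minus) in Hist1h3c and chr13:22040966-22040981 (minus) in Hist1h4i, in each case in the 3′ UTR. The first form served H1, H2A, H2B and H3 genes, and 7 H4 genes shared another, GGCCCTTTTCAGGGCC. What differed among the members was how far the assembled locus ran past this site. In 24 genes it ended 2 to 63 bases downstream of the stem-loop, and in 20 genes it continued for 108 to 7655 bases. The 7655 bases are those of Hist3h2a, whose locus also holds Trim17, and include exons of that gene. The 848 bases of Hist1h3g likewise include exons of Hist1h3f. Hist1h2ae had 6 exonic bases after the stem-loop and Hist1h3c 34, whereas Hist1h1c had 840, Hist3h2ba 988 and Hist1h4i 4689. A canonical signal (AATAAA or ATTAAA) stood in the last 50 bases of a matched transcript of 18 of the 70 genes, against 50.2% of all 58797 protein-coding transcripts. Hist1h1c, Hist3h2ba, Hist1h4i and Hist2h2be were among those with the signal. The annotated transcript of Hist1h2ae also has the signal, but it runs 151 bases past the stem-loop, beyond the end of the assembled locus.

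Of the 66 loci 53 lay on chromosome 13, 9 on chromosome 3, 3 on chromosome 11 and 1 on chromosome 6. Exonic length ran from 312 to 8337 bases, with a median of 504.5, and 7 loci had an annotated transcript with more than 1 exon. 5 loci joined genes, namely Hist3h2a/Trim17, Hist1h2aj/Hist1h2ak, Hist1h3f/Hist1h3g, Hist1h2bm/Hist1h2bp and Hist2h2aa2/Hist2h3c1, and their counts cannot be assigned to either gene. Many copies are nearly identical: in 29 of the 70 genes over 50% of the 100-base windows of the transcript also occurred in a transcript of another gene, and only 7 genes shared none. Reads that map to several places were set aside by the authors, so levels of such copies, Hist1h2bh among them at 100%, rest on the reads that stayed unique and are uncertain.

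The members were a small part of the poly(A) RNA. Their summed level was 67.3, 67.2, 63.1 and 53.6 CPM in ESC replicates 1, 2, 5 and 6 (62.8 ± 6.46, SD, n = 4), 42.5, 47.8, 56.6 and 39.4 CPM in Eo- (46.6 ± 7.52) and 41.3, 33.1, 49.5 and 37.4 CPM in Eo+ (40.3 ± 6.98). Every Eo+ library lay below every ESC library, while Eo- replicate 5 overlapped with ESC. For comparison, H3f3b, which encodes the replication-independent variant H3.3 from an ordinary polyadenylated mRNA, alone reached 1126 ± 100 CPM in ESC. Per kilobase of exon the highest member in ESC was Hist1h2bc at 7.08 CPM per kilobase (FPKM), followed by Hist1h1c at 6.10, Hist1h3c at 5.50 and Hist1h2ae at 4.04, against 378 FPKM for H3f3b. In Eo+ cells Hist1h1c led at 6.05 FPKM, with Hist1h3c at 2.52 and Hist1h2bc at 2.07.

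57 members passed the filter on low values and were tested across 20212 loci with limma voom, called at a Benjamini-Hochberg adjusted p of at most 0.05. The 9 that did not pass (Hist2h4, Hist3h2bb-ps, Hist2h2ab, Hist2h2aa1, Hist1h2aa, Hist1h2ba, Hist1h2bq, Hist1h2br and Hist1h2ao) averaged 0.00538 to 0.118 CPM. In Eo+ against ESC 42 of the 57 were lower, where 33.8% of all loci were, and 1 was higher, where 32.9% of all loci were. In Eo- against ESC 29 were lower and 2 higher, against 29.4% and 27.9% of all loci; without Eo- replicate 1 the lower calls numbered 19. The median log2 fold change of the members was -1.13 in Eo+ and -0.63 in Eo-, beside -0.01 and 0.02 over all loci tested. Both comparisons share the 4 ESC libraries. The plot of fold changes shows every tested member in all 3 comparisons.

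**Figure D1:**
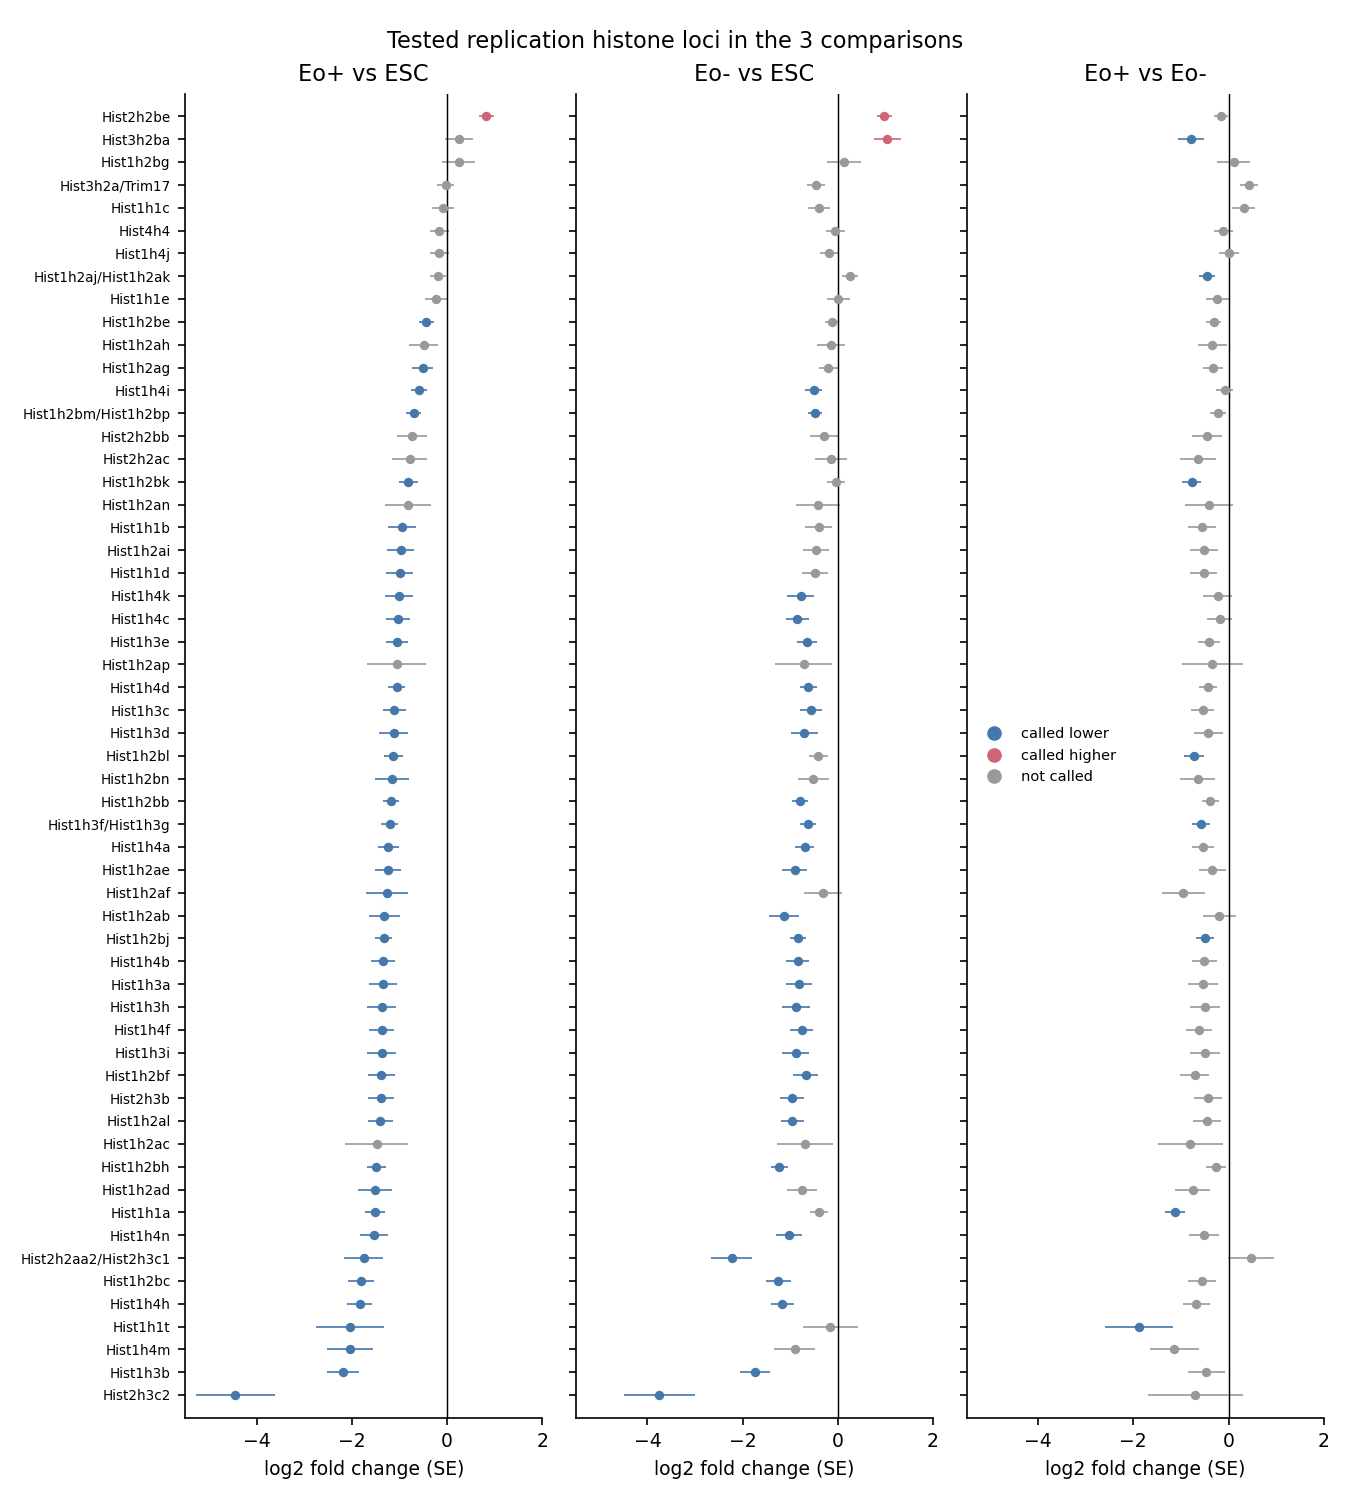
Log2 fold change with its standard error for the 57 tested replication histone loci, ordered by the change from ESC to Eo+, in the 3 comparisons (limma voom, 4 libraries a group). Points left of 0 are lower in the first-named group; colours mark adjusted p at most 0.05. Of the Eo+ vs ESC points 42 are called lower and 1 higher.

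H3 genes supply the canonical H3.1 and H3.2 proteins. All 10 tested loci of H3 genes alone were lower than ESC in both sorted groups, where 33.8% (Eo+) and 29.4% (Eo-) of all loci were, with log2 fold changes of -4.44 to -1.05 in Eo+ and -3.75 to -0.57 in Eo-. The count in Eo- rested on single libraries: it was 4 of 10 without Eo- replicate 1, 5 without ESC replicate 2 and 6 without Eo- replicate 6. Hist1h3c, the highest of them, measured 2.55, 3.58, 1.88 and 2.76 CPM in ESC, 1.31, 2.40, 1.95 and 1.61 in Eo-, and 0.993, 1.38, 1.11 and 1.45 in Eo+ replicates 1, 2, 5 and 6. All 4 Eo+ libraries were below all ESC libraries, and the Eo- libraries overlapped with ESC. The change was -1.11 ± 0.23 (log2, SE; limma adjusted p = 0.000793) in Eo+ and -0.57 ± 0.22 (adjusted p = 0.0436) in Eo-. The Eo- call was lost without any one of ESC replicates 1, 2 and 6, Eo- replicates 1, 5 and 6 or Eo+ replicates 2, 5 and 6 (adjusted p up to 0.149), and with library totals in place of TMM (adjusted p = 0.0615), edgeR, no filter or a fit of the 2 groups alone.

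The joined locus Hist1h3f/Hist1h3g, of a pair of H3 genes, held 2.67, 2.48, 2.52 and 1.93 CPM in ESC, 1.31, 1.78, 2.00 and 1.24 in Eo-, and 0.963, 1.05, 1.04 and 1.09 in Eo+. Its Eo+ libraries were below every library of both other groups, at -1.21 ± 0.18 against ESC (limma adjusted p = 4.0e-05) and -0.58 ± 0.19 against Eo- (adjusted p = 0.0220). The call against Eo- was lost without Eo- replicate 2, Eo- replicate 5 or Eo+ replicate 1 (limma adjusted p up to 0.0716). It was kept with the replicate number as a block (limma adjusted p = 0.0144). A member named after its values were seen, Hist2h3c2, had the most negative fitted change of all, from 0.231, 0.121, 0.185 and 0.117 CPM in ESC to 0.00707, 0.00641, 0.0350 and 0.0101 in Eo- and 0.0178, 0, 0.0283 and 0.00784 in Eo+. Its sorted libraries lie near the floor of 3 counts, so the fitted -4.44 ± 0.82 in Eo+ depends on the offset that voom adds to low counts. This locus passed the filter on low values only through ESC, which favoured a fall.

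H4 genes form the other part of the H3-H4 tetramer. Of 12 tested loci 10 were lower in Eo+ and 9 in Eo- than in ESC, where 33.8% and 29.4% of all loci were, and none was higher. The Eo- count was 6 without Eo- replicate 1 or Eo- replicate 6, and 7 without ESC replicate 1. Hist1h4i averaged over 50% of the family's CPM in each group, 51.1% ± 4.58 in ESC and 59.6% ± 4.24 in Eo+ (SD, n = 4), over 5656 exonic bases; per kilobase it was at 1.09 FPKM in ESC. It read 6.95, 6.31, 6.96 and 4.38 CPM in ESC, 3.86, 4.46, 5.35 and 3.68 in Eo-, and 4.27, 3.38, 4.56 and 4.10 in Eo+. The groups overlapped through ESC replicate 6, yet the locus was lower in Eo+ at -0.59 ± 0.17 (limma adjusted p = 0.00846) and in Eo- at -0.51 ± 0.17 (adjusted p = 0.0212). The Eo- call was lost in 4 of the fits that left out 1 library (ESC replicate 1 or 5, Eo- replicate 1 or 6), with adjusted p up to 0.0727. Hist1h4h, a shorter locus of 610 exonic bases, went from 0.750 ± 0.179 CPM in ESC to 0.334 ± 0.0737 in Eo- and 0.210 ± 0.0536 in Eo+, with no overlap with ESC, at -1.84 ± 0.26 in Eo+ (adjusted p = 2.5e-05) and -1.17 ± 0.24 in Eo- (adjusted p = 0.000916). The 2 tested H4 loci without a call in Eo+, Hist4h4 and Hist1h4j, named after their values were seen, had means that spanned 0.274 to 0.304 CPM and 0.330 to 0.371 CPM over the 3 groups.

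H2B pairs with H2A in the nucleosome. Of 14 tested loci 10 were lower and 1 higher in Eo+, where 33.8% and 32.9% of all loci were. In Eo- 6 were lower and 2 higher, where 29.4% and 27.9% of all loci were. The shares called higher were below those of all loci. The lower count in Eo- was 4 without Eo- replicate 6 and 7 without ESC replicate 6. Hist1h2bc, a spliced H2B locus with the highest level per length in ESC, read 6.34, 4.07, 6.80 and 3.63 CPM in ESC, 2.28, 2.02, 2.73 and 1.62 in Eo-, and 1.75, 0.988, 2.18 and 1.17 in Eo+. No library of either sorted group reached the lowest ESC library, and the locus was lower at -1.80 ± 0.28 in Eo+ (limma adjusted p = 5.1e-05) and -1.25 ± 0.26 in Eo- (adjusted p = 0.00103). Hist1h2bh was also lower, at -1.48 ± 0.19 in Eo+ (adjusted p = 1.2e-05) and -1.23 ± 0.19 in Eo- (adjusted p = 8.0e-05), from 0.620 ± 0.0982 CPM in ESC, within the limit on identical copies given above.

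Hist2h2be went the other way. It measured 0.561, 0.474, 0.475 and 0.595 CPM in ESC, 0.995, 1.05, 1.07 and 1.01 in Eo-, and 0.918, 0.866, 1.09 and 0.842 in Eo+. All 8 sorted libraries were above all 4 ESC libraries, at 0.82 ± 0.16 (log2; limma adjusted p = 0.000343) in Eo+ and 0.98 ± 0.15 (adjusted p = 0.000104) in Eo-. This locus of 2620 exonic bases, at chr3:96221119-96223738 on the plus strand, had no stem-loop match in its transcript and ended 22 bases after the start of a polyadenylation signal.

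Hist3h2ba, the other member called higher in Eo-, read 1.42, 2.02, 1.19 and 2.52 CPM in ESC, 2.55, 3.72, 4.70 and 3.37 in Eo-, and 1.51, 1.83, 3.501 and 1.73 in Eo+. Eo- libraries were all above ESC, at 1.04 ± 0.28 (limma adjusted p = 0.00664), while Eo+ libraries overlapped with both groups, at 0.25 ± 0.30 against ESC (adjusted p = 0.491) and -0.79 ± 0.28 against Eo- (adjusted p = 0.0357). Without Eo- replicate 2, 5 or 6 or Eo+ replicate 1, 2 or 6 the last call was lost (limma adjusted p up to 0.113). It was also lost in edgeR (adjusted p = 0.0637) and kept with the replicate number as a block (limma adjusted p = 0.0359). Hist1h2bg did not move beyond its spread, with means of 1.25 ± 0.334, 1.43 ± 0.616 and 1.53 ± 0.606 CPM in ESC, Eo- and Eo+. Hist1h2bk separated the sorted groups instead: 1.16 ± 0.201 CPM in ESC, 1.14 ± 0.218 in Eo- and 0.664 ± 0.120 in Eo+. It was lower in Eo+ than in ESC at -0.82 ± 0.20 (limma adjusted p = 0.00242) and than in Eo- at -0.78 ± 0.20 (adjusted p = 0.00635). The limit on identical copies applies here too, with 70.8% of its windows shared.

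**Figure D2:**
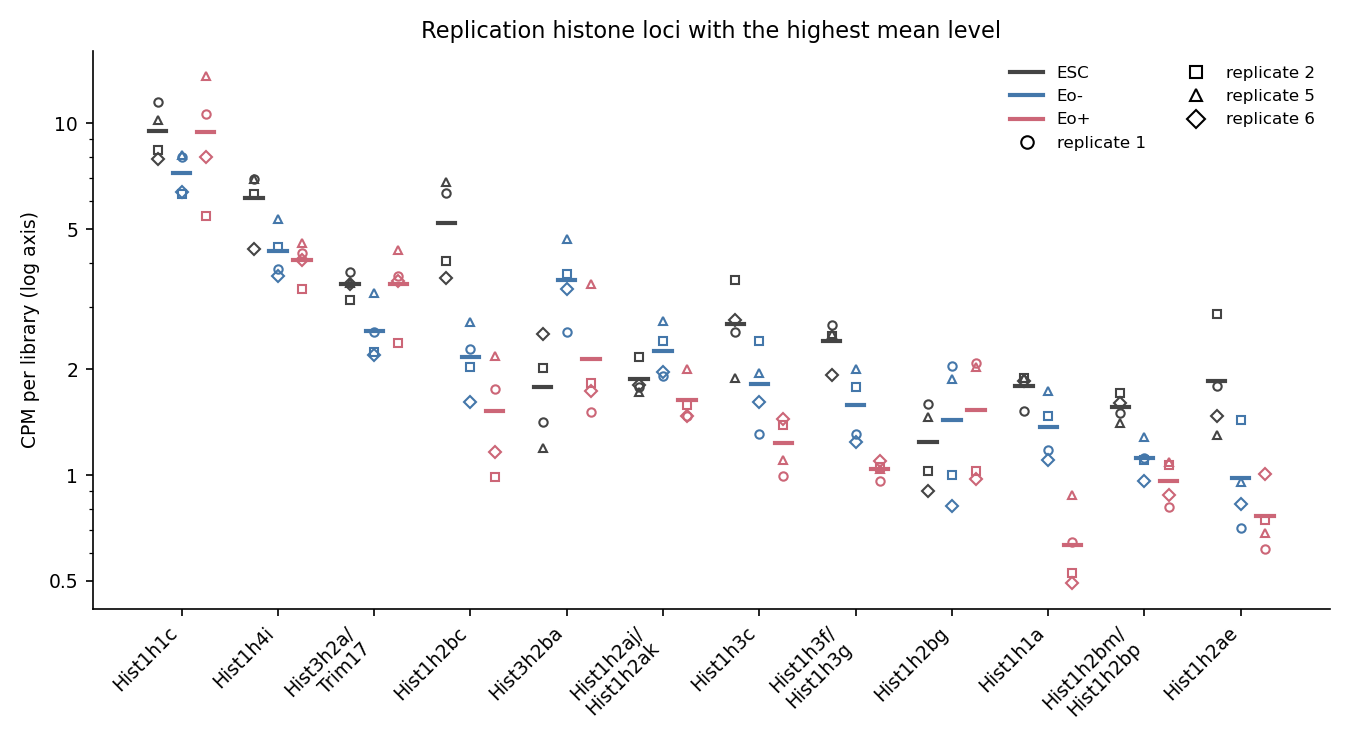
CPM (log axis) of the 12 replication histone loci with the highest mean level, per library; bars are group means, symbols the replicate numbers and colours the groups. Hist1h2bc separates ESC from both sorted groups, Hist1h1a separates Eo+ from both others, and Hist1h1c and Hist1h2bg overlap in all 3 groups.

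Of 14 tested H2A loci 7 were lower in Eo+ (median -1.02) and 3 in Eo- (median -0.46), and none was higher, where 33.8% and 29.4% of all loci were lower; the Eo- share was below that of all loci. The Eo- count was 5 with the DESeq2 size factors and without Eo+ replicate 5. Hist1h2ae was 1.79, 2.87, 1.30 and 1.47 CPM in ESC, 0.707, 1.43, 0.956 and 0.8288 in Eo-, and 0.615, 0.746, 0.684 and 1.01 in Eo+, lower in Eo+ at -1.24 ± 0.28 (limma adjusted p = 0.00125) and in Eo- at -0.91 ± 0.27 (adjusted p = 0.0106). Eo+ lay wholly under ESC and Eo- overlapped with it. The H2A locus with the highest CPM, Hist3h2a/Trim17, averaged 3.49 ± 0.263, 2.57 ± 0.510 and 3.495 ± 0.828 CPM in ESC, Eo- and Eo+; it also holds Trim17, a gene of the tripartite-motif family, and per kilobase it was at 0.418 FPKM in ESC, below the 4.04 FPKM of Hist1h2ae. In Eo- against ESC it stood at -0.46 ± 0.19 (adjusted p = 0.0509), just outside the threshold, and was called lower with the replicate block (-0.45 ± 0.15, limma adjusted p = 0.0197), the DESeq2 size factors or test, the 1 CPM filter, the 2 groups alone, and without Eo- replicate 5, Eo+ replicate 2 or Eo+ replicate 5. Hist1h2aj/Hist1h2ak averaged 1.87 ± 0.205, 2.25 ± 0.389 and 1.63 ± 0.254 CPM in ESC, Eo- and Eo+. It was lower in Eo+ than in Eo- at -0.45 ± 0.16 (limma adjusted p = 0.0376). This call was lost without Eo- replicate 2 or 5 or Eo+ replicate 1, 2 or 6 (adjusted p up to 0.116) and without the filter. With the replicate number as a block it was kept (limma adjusted p = 0.0266). The joined locus Hist2h2aa2/Hist2h3c1, of an H2A and an H3 gene, was lower at -1.76 ± 0.42 in Eo+ (limma adjusted p = 0.00191) and -2.23 ± 0.43 in Eo- (adjusted p = 0.000571). It passed the filter on low values only through ESC, which favoured a fall, at 0.279 FPKM beside 0.0655 in Eo- and 0.0902 in Eo+. The limit on identical copies also applies, with 75.5% and 100% of the windows of its 2 genes shared.

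H1 genes encode the linker histones, whose variants differ in sequence. Of 6 tested loci 4 were lower in Eo+ than in ESC and none in Eo-, where 33.8% and 29.4% of all loci were, although without Eo- replicate 5 Hist1h1a, Hist1h1b and Hist1h1d were called lower in Eo- (3 of 6). Hist1h1c (H1.2), the highest member by CPM, read 11.5, 8.37, 10.2 and 7.94 CPM in ESC, 8.02, 6.31, 8.15 and 6.36 in Eo-, and 10.7, 5.46, 13.6 and 8.02 in Eo+. The groups overlapped throughout, and its change of -0.09 ± 0.23 in Eo+ (limma adjusted p = 0.765) was far from the threshold, with a sign that turned without ESC replicate 1 or Eo+ replicate 2. In Eo- it stood at -0.40 ± 0.23 (adjusted p = 0.160), and was called lower with the replicate block (limma adjusted p = 0.0352) and in a fit of the 2 groups alone (adjusted p = 0.0404). Against Eo- the Eo+ value was 0.32 ± 0.24 (adjusted p = 0.306), and without Eo+ replicate 2 it was 0.57 and called higher (limma adjusted p = 0.032). Hist1h1a (H1.1), which has 642 exonic bases, was 1.52, 1.89, 1.89 and 1.85 CPM in ESC, 1.18, 1.47, 1.74 and 1.10 in Eo-, and 0.644, 0.526, 0.876 and 0.492 in Eo+. Every Eo+ library was below every other library, at -1.52 ± 0.21 against ESC (adjusted p = 1.8e-05) and -1.12 ± 0.21 against Eo- (adjusted p = 0.000772). Hist1h1c accordingly made up 66.1% ± 4.63 of the H1 counts in ESC, 65.3% ± 5.93 in Eo- and 78.9% ± 4.55 in Eo+ (SD, n = 4), with all Eo+ libraries above all others, and Hist1h1a 12.7% ± 2.49, 12.4% ± 1.55 and 5.52% ± 0.972.

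Between the sorted groups 8 of 57 members were lower in Eo+ than in Eo- and none was higher, where 22.2% and 21.2% of all loci were; the lower share is below that of all loci. By the unblocked fit these were Hist1h1a, Hist1h1t, Hist1h2bk, Hist1h2bl, Hist1h2bj, Hist3h2ba, Hist1h3f/Hist1h3g and Hist1h2aj/Hist1h2ak. The replicate numbers paired Eo- with Eo+ libraries, and with the number as a block 13 were lower and 1 higher, where 24.9% and 23.8% of all loci were. The block over 12 libraries kept all 8 and added Hist1h1b, Hist1h1d, Hist1h2bc (-0.54 ± 0.14, limma adjusted p = 0.00978), Hist1h3c (-0.55 ± 0.19, adjusted p = 0.0329) and Hist1h4d as lower and Hist3h2a/Trim17 as higher (0.44 ± 0.15, adjusted p = 0.0293). 52 of the 57 unblocked fold changes were negative, with a median of -0.46, beside -0.03 over all loci. The count fell to 3 without Eo- replicate 2, to 4 (3 lower, 1 higher) without Eo- replicate 5, to 4 without Eo+ replicate 1 and to 5 without Eo- or Eo+ replicate 6; without Eo+ replicate 2 it was 5 lower and 2 higher, Hist1h1c and Hist3h2a/Trim17, and DESeq2 gave 14. The Hist1h2bj call was lost without any one of the 8 sorted libraries, and the Hist1h1t call in edgeR, DESeq2, the fit without the filter, the fit of the 2 groups alone and all fits without 1 library except those without ESC replicate 6, Eo+ replicate 2 or Eo+ replicate 6.

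The members were also split by exonic length, a split made after the values were seen. Among the 40 tested loci with up to 1000 exonic bases 33 were lower in Eo+ and none higher, with a median of -1.25, and 22 were lower in Eo-, with a median of -0.71. Among the 17 tested loci above 1000 bases 9 were lower and 1 higher in Eo+, with a median of -0.59, and 7 lower and 2 higher in Eo-, with a median of -0.46. Both members called higher were in the long group. In Eo+ 7 of the 40 short and 7 of the 17 long loci were not called, and the difference between the classes was not tested. Over the 57 loci Spearman's rho between exonic length and log2 fold change was 0.366 in Eo+ and 0.345 in Eo- (0.335 and 0.382 over 52 single-gene loci), a description across genes that share libraries.

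**Figure D3:**
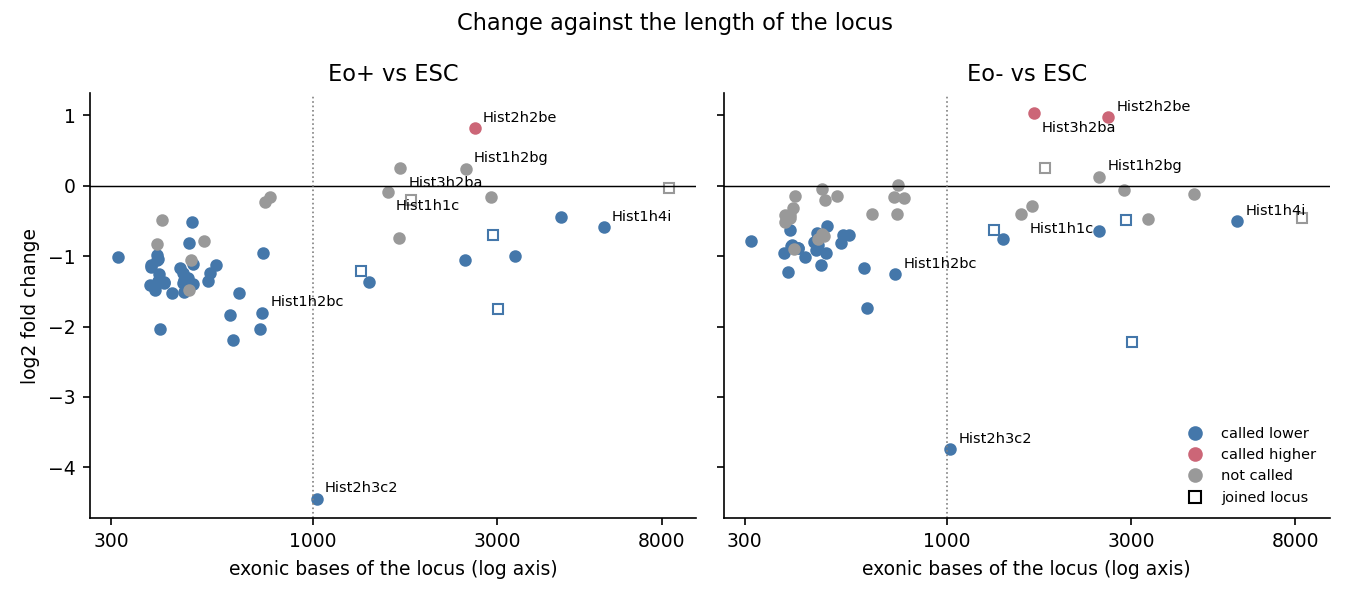
Log2 fold change against exonic bases of the locus (log axis) for the 57 tested loci, in Eo+ and in Eo- against ESC. The dotted line stands at 1000 bases; squares are joined loci. Both loci called higher, Hist2h2be and Hist3h2ba, lie to its right, as does Hist2h3c2 with the deepest fall.

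By summed level the short loci held 29.5, 33.9, 27.4 and 23.96 CPM in ESC (28.7 ± 4.15), 14.8, 20.01, 20.8 and 14.8 CPM in Eo- (17.6 ± 3.25) and 11.7, 11.9, 12.6 and 12.2 CPM in Eo+ (12.1 ± 0.413). The 3 groups did not overlap. The long loci held 34.1 ± 3.54, 29.0 ± 4.77 and 28.3 ± 6.70 CPM, and there the groups overlapped, with replicate 5 highest in Eo- (35.8 CPM) and Eo+ (36.9 CPM). The members were split by the stem-loop and by the signal in the same way. Of 22 tested loci that end within 70 bases of the stem-loop 18 were lower in Eo+ (median -1.28) and 13 in Eo- (median -0.74). Of 17 that run further, joined loci included, 11 were lower in Eo+ (median -0.70), and 9 were lower and 1 higher in Eo- (median -0.48). Of 18 with no stem-loop found 13 were lower and 1 higher in Eo+ (median -1.14), and 7 lower and 1 higher in Eo- (median -0.44). With a polyadenylation signal at the annotated end 8 of 14 tested loci were lower and 1 higher in Eo+ (median -0.51), and without one 34 of 43 were lower (median -1.17). In Eo- 6 of the 14 were lower and 2 higher (median -0.43), and 23 of the 43 lower (median -0.68). Over all loci 33.8% were lower in Eo+ and 29.4% in Eo-. The differences between these classes were not tested.

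**Figure D4:**
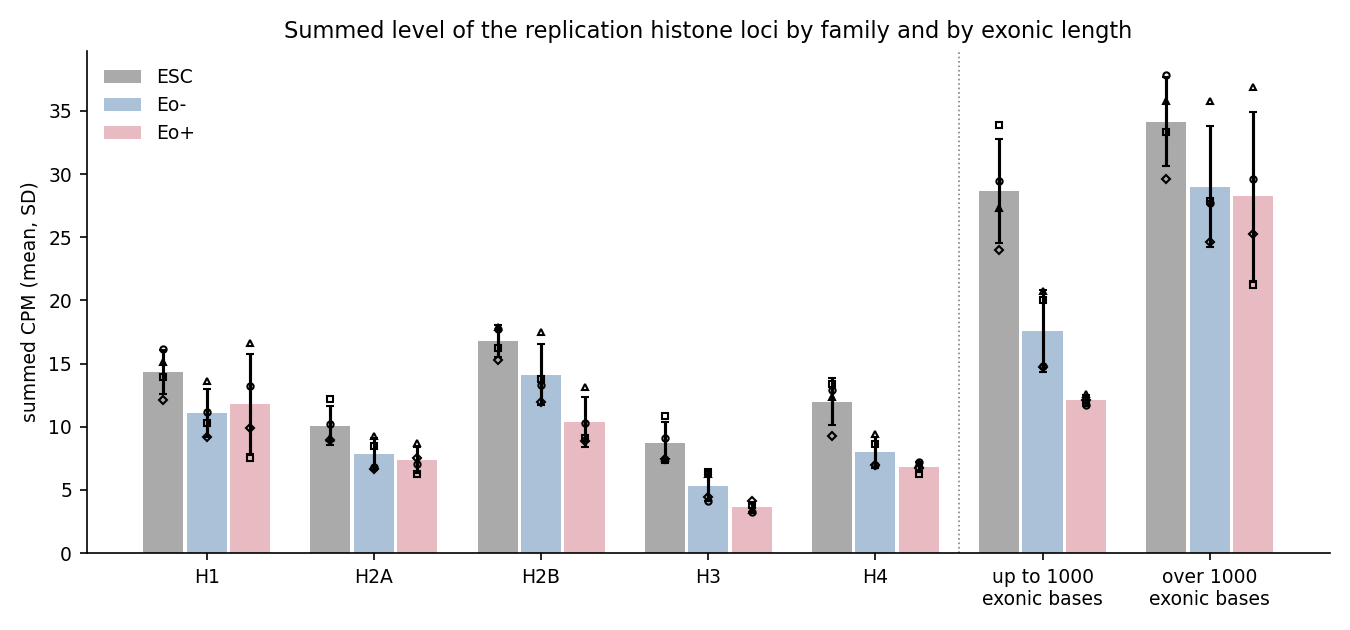
Summed CPM per library (symbols as replicate numbers in the plot of single loci), with the mean and SD as bars, by histone family and, right of the dotted line, for all loci up to and over 1000 exonic bases. The short loci step down from 28.7 in ESC to 17.6 in Eo- and 12.1 CPM in Eo+, and the long ones overlap.

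H2A and H2B genes often lie head to head, sharing the stretch between their start sites. Among the members 14 such pairs lay 172 to 305 bases apart, and in 10 both loci were tested. In Eo+ against ESC both were lower in 3 pairs, 1 of the 2 in 6 and neither in 1, and in Eo- the counts were 0, 6 and 4. 3 of the 10 pairs include a joined locus, whose counts belong to no single gene, and Hist1h2aj/Hist1h2ak and Hist1h2bm/Hist1h2bp each enter more than one pair. In the 7 pairs without joined loci the counts were 3, 3 and 1 in Eo+ and 0, 4 and 3 in Eo-. Taken singly, 33.8% of all loci were lower in Eo+ and 29.4% in Eo-. The 2 pairs printed here are those whose partners lay furthest apart in Eo+ against ESC, chosen after their values were seen. Hist1h2ae fell at -1.24 ± 0.28 in Eo+ while its partner Hist1h2bg stood at 0.24 ± 0.35 (limma adjusted p = 0.563), and Hist2h2be rose at 0.82 ± 0.16 while Hist2h2ac stood at -0.79 ± 0.37 (adjusted p = 0.0750). Hist2h2ac was called lower in Eo+ with the replicate block, in edgeR, in the DESeq2 test and without ESC replicate 6. Its pair is the 1 counted as neither lower, so that count depends on the fit. The difference within a pair was not tested. Hist1h2ae ends near its stem-loop and Hist1h2bg runs 1828 bases past its own, at 460 and 2483 exonic bases. The bases between the RefSeq starts (GRCm38.p6, plus strand) are chr13:23571221-23571399 and chr3:96220881-96221071, with the CCAAT box and the TATA box (TATAAA, or TATAAG in other genes), read on either strand, in capitals.
Hist1h2ae to Hist1h2bg: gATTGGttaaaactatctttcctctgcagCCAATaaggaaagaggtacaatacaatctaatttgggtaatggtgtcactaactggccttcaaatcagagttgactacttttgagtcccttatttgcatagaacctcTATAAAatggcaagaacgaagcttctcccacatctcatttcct
Hist2h2ac to Hist2h2be: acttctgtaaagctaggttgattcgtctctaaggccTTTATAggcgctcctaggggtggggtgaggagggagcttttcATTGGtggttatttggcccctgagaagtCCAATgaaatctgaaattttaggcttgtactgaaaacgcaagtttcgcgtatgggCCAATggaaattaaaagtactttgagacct

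The first stretch carries a CCAAT box on each strand and a TATA box that faces Hist1h2bg. The second carries 3 CCAAT boxes, of which 1 lies on the minus strand, and a TATA box that faces Hist2h2ac. In 300-base windows around RefSeq start sites, CCAAT stood on either strand in 52 of 61 windows of 60 member genes (85.2%), against 37.4% of 32851 windows of all genes. A TATA box of either spelling stood in 47 of 61 (77.0%), against 18.8%. Windows of a head-to-head pair overlap, so they are not independent. These matches are letters only and show no binding.

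**Figure D5:**
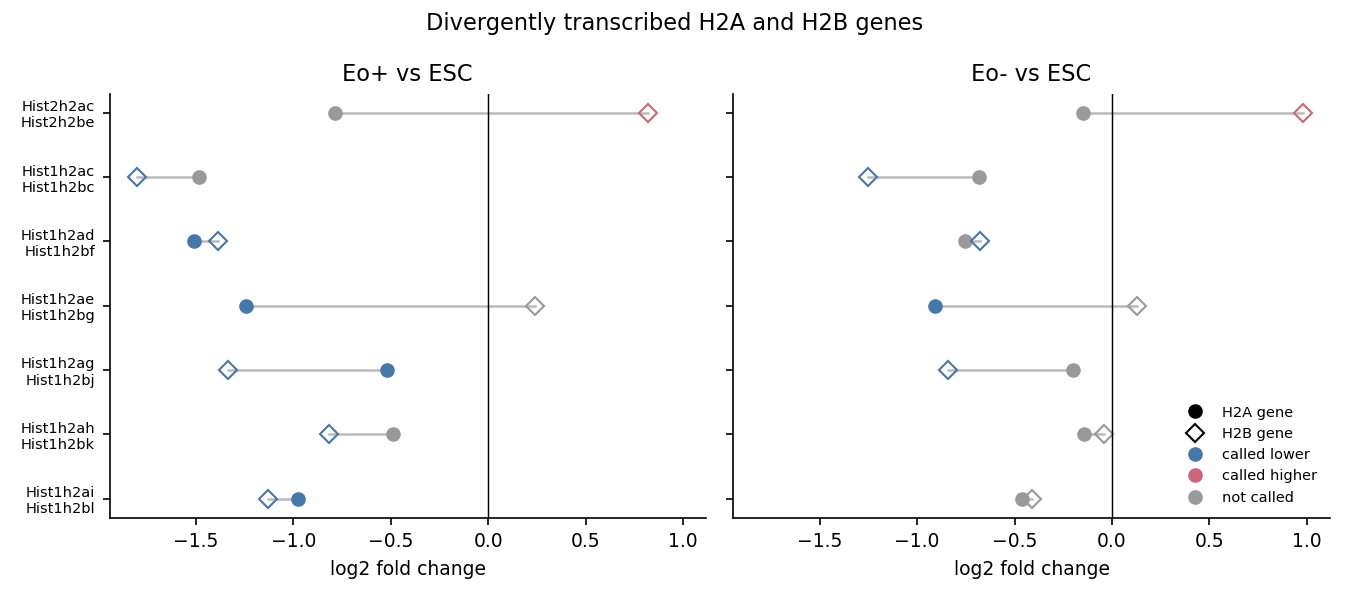
Log2 fold change of both genes of the 7 head-to-head pairs in which both loci were tested and neither was joined, in Eo+ and in Eo- against ESC; filled circles are H2A and open diamonds H2B genes. The partners Hist1h2ae (-1.24) and Hist1h2bg (0.24) stand on opposite sides of 0, as do Hist2h2ac (-0.79) and Hist2h2be (0.82).

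Replication-independent histone genes mostly make ordinary polyadenylated mRNAs, although H2afx is known to make a stem-loop form as well, and they moved in both directions. Of 11 tested 6 were higher and 3 lower in Eo+ than in ESC, with a median of 0.50, 4 were higher and 4 lower in Eo-, and 4 were higher and none lower in Eo+ than in Eo-. Over all loci 32.9% were higher and 33.8% lower in Eo+ than in ESC, 27.9% and 29.4% in Eo-, and 21.2% and 22.2% in Eo+ against Eo-; the counts of the gene lists that follow stand beside the same shares. With the replicate block 5 were higher, with H1fx (named after its values were seen) added, and 1 lower, H2afj (limma adjusted p = 0.0420). H3f3a, a second H3.3 gene, rose from 375 ± 29.9 CPM in ESC to 493 ± 38.1 in Eo- and 587 ± 32.3 in Eo+ (0.65 ± 0.07, limma adjusted p = 2.0e-06, in Eo+), while H3f3b stayed uncalled at 0.05 ± 0.06. H1f0, the linker histone H1.0 typical of differentiated cells, counted here with its neighbour Gcat, was higher by 1.499 ± 0.13 in Eo+ (adjusted p = 2.8e-07) and 1.07 ± 0.13 in Eo- (adjusted p = 1.5e-05). H2afy2, a macroH2A gene, was higher by 1.76 ± 0.11 in Eo+ (adjusted p = 1.2e-08) but not in Eo-, and was higher in Eo+ than in Eo- by 1.92 ± 0.11 (adjusted p = 9.4e-08). H2afz (H2A.Z) was lower by -0.23 ± 0.07 and -0.20 ± 0.07 in Eo+ and Eo-, and H2afj fell most, at -0.97 ± 0.13 in Eo+ (adjusted p = 1.8e-05).

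The genes that transcribe and end histone mRNAs showed smaller changes. Of 24 tested 7 were higher and 4 lower in Eo+, 4 higher and 3 lower in Eo- than in ESC, with medians of 0.08 and 0.0037, and none of these shares was above that of all loci. Slbp, the stem-loop binding protein, averaged 154 ± 13.3 CPM in ESC, 144 ± 6.14 in Eo- and 137 ± 7.70 in Eo+ and missed the threshold in Eo+ at -0.16 ± 0.07 (limma adjusted p = 0.0550). Zcchc11, a terminal uridylyltransferase that acts on histone mRNA in its decay, counted with Gm23138, was higher by 1.09 ± 0.13 in Eo+ (adjusted p = 3.4e-06) and 0.55 ± 0.13 in Eo- (adjusted p = 0.00228). Zfp473, a zinc finger protein of the U7 processing complex, was lower by -0.56 ± 0.09 and -0.65 ± 0.09. Among the most abundant, Snrpb was higher in Eo+ at 0.32 ± 0.10 (adjusted p = 0.00824), Srrt, counted with Slc12a9 and Trip6, was lower at -0.42 ± 0.09 (adjusted p = 0.000737), and Snrpd3 was not called.

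Of 19 histone chaperone genes 5 were higher and 6 lower in Eo+, and 1 higher and 5 lower in Eo- than in ESC; 1 was higher and 3 lower in Eo+ than in Eo-, or 3 and 4 with the replicate block. The shares called in Eo+ and Eo- against ESC were below those of all loci. Hat1, which acetylates new H4, was lower by -0.71 ± 0.06 in Eo+ (limma adjusted p = 2.3e-07), and Nasp, an H1 and H3-H4 chaperone, by -0.29 ± 0.07 (adjusted p = 0.00169). Chaf1b, a subunit of the assembly factor CAF-1, was higher in Eo- than in ESC at 0.37 ± 0.09 (adjusted p = 0.00229) and lower in Eo+ than in Eo- at -0.52 ± 0.09 (adjusted p = 0.000311).

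Of 23 DNA replication genes 13 were lower and 3 higher in Eo+ than in ESC, with a median of -0.19, but only 2 were lower and 4 higher in Eo-, with a median of -0.0049, and 12 were lower and 2 higher in Eo+ than in Eo-. With the replicate block 14 were lower and 2 higher in Eo+ than in Eo-. The summed level of the 23 genes was 5339 to 6031 CPM in ESC, 5143 to 5617 CPM in Eo- and 4168 to 4836 CPM in Eo+ libraries. Mcm3, a subunit of the replicative helicase, was lower in Eo+ than in ESC at -0.47 ± 0.09 (limma adjusted p = 0.000486) and stood at -0.06 ± 0.09 in Eo- (adjusted p = 0.625). Ccne1, cyclin E1 of the entry into S phase, fell in both, at -1.39 ± 0.11 in Eo+ (adjusted p = 1.4e-07) and -0.53 ± 0.11 in Eo- (adjusted p = 0.000916). Ccne2 was higher in Eo+ at 0.48 ± 0.16 (adjusted p = 0.0148). In Eo- against ESC 29 of 57 replication histone loci (19 without Eo- replicate 1) and 2 of 23 DNA replication genes were lower. In Eo+ the counts were 42 of 57 and 13 of 23. Of all loci 29.4% were lower in Eo- and 33.8% in Eo+. The difference between the lists was not tested.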

How the data were processed

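Per the labels and methods, poly(A)-selected, strand-specific paired-end libraries were aligned to mm10 with STAR (2.0.4 in the submitters' processing notes), assembled with Cufflinks 2.2.1 on Ensembl GRCm38 genes and counted over exons of the merged loci with HTSeq 0.6.1; multiply mapped reads (22.4 to 26.2% of alignments) were left out. The counts deposited by the authors are raw whole numbers; their normalized table was not used. Loci with an annotated transcript or a multi-exon transcript of at least 200 bases, and a mean FPKM above 0.1 in at least 1 group, were fitted with limma 3.58.1 voom (R 4.3.3; TMM of edgeR 4.0.16; 1 mean per group; 12 libraries), two-sided, adjusted over 20212 loci. CPM use TMM library sizes; FPKM are mean CPM per kilobase of exon. DESeq2 1.42.0 and edgeR's quasi-likelihood test were alternatives. Scripts were tested on simulated data. 5 tally lines that name no gene were left out, and 0 columns belonged to other samples.

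Members, gene lists and splits were chosen with earlier results of these data known. Named members are the 12 highest by mean CPM, the highest of each family, and the 3 largest rises and falls per comparison among called members whose higher group averaged 0.5 CPM or more; of each gene list the 3 highest and the largest called rise and fall, with Slbp, H2afz, H3f3a and H3f3b. Same-numbered Eo- and Eo+ libraries deviated together over all loci (r = 0.359, 0.151, 0.175 and 0.115 for numbers 1, 2, 5 and 6), so the numbers were taken to pair them. For ESC the picture was mixed. In the same order of numbers, r was 0.185, 0.132, -0.0611 and 0.0624 with Eo-. With Eo+ it was 0.0621, 0.0645, -0.0226 and -0.0457. The labels do not say whether libraries of a group came from separate cultures beyond the 4 differentiation sets, so p-values measure the spread between these libraries.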

Additional observations from a re-analysis of the deposited data

Results flagged for a closer look

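4 of 75 groups of 4 libraries had 1 library apart from the rest by more than Dixon's 95% critical value allows; chance alone flags about 1 in 20 groups. Hist3h2ba was highest in Eo+ replicate 5, at 3.501 CPM beside 1.51 to 1.83 in the other libraries. Hist1h1a was lowest in ESC replicate 1, at 1.52 CPM beside 1.85 to 1.89. Hist2h2aa2/Hist2h3c1 was highest in replicate 5 of both sorted groups, at 0.395 CPM beside 0.124 to 0.137 in Eo- and 0.536 CPM beside 0.151 to 0.204 in Eo+.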

How the results depend on the processing

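The number of members called kept within 1.5 times its value under the other scalings, edgeR's quasi-likelihood test, no filter, single-gene loci and fits of the 2 groups alone, in all 3 comparisons. A minimum of 1 CPM in 4 libraries left 17 members to test and 12 and 10 calls for Eo+ and Eo- against ESC and 5 between the sorted groups. Asking for 2-fold as well left 9 calls between Eo- and ESC, and 2 between the sorted groups. Between the sorted groups there were 14 calls with DESeq2, 14 with the replicate block, 16 (chosen after seeing the data) with the block over Eo- and Eo+ libraries alone (which lost Hist1h1t), and 3 to 10 without 1 library. In Eo- vs ESC the count was 21 without Eo- replicate 1; the block left the ESC comparisons within 1.5 times. The summed level was 52.7, 38.9 and 32.9 CPM in ESC, Eo- and Eo+ over single-gene loci, and 53.3 and 30.9 CPM in ESC and Eo+ without Hist1h1c, the highest locus.

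Small uncalled fold changes changed sign: Hist3h2a/Trim17 in Eo+ vs ESC was 0.0011 with library totals, 0.0030 in edgeR and 0.026 without the filter, and Hist1h2bk in Eo- vs ESC 0.037 with library totals and 0.015 without the filter. Without 1 library the ranges were -0.27 to 0.17 for Hist1h1c and -0.14 to 0.16 for Hist3h2a/Trim17 in Eo+ vs ESC, -0.00018 to 0.43 for Hist3h2ba in Eo+ vs ESC, -0.13 to 0.073 for Hist1h2bk and -0.079 to 0.37 for Hist1h2bg in Eo- vs ESC. Between the sorted groups they were -0.12 to 0.33 for Hist1h2bg and -0.15 to 0.023 for Hist1h4i. The cause was not tested. Of the other values of named members 942 kept their direction and call, 34 lost a call and 30 gained one. Low counts limit the loci near the floor, and reads shared between copies were not counted.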

Other observations

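In 5 of the 57 tested members (8.77%) replicates 1 and 5 lay above replicates 2 and 6 in all 3 groups, a pattern noticed in the values: Hist1h1c, Hist3h2a/Trim17, Hist1h2bc, Hist1h2bg and Hist2h2bb. Over all 20212 loci 542 (2.68%) had this order and 563 (2.79%) the opposite one, as did Hist1h1t, the testis H1 gene, among the members. Hist1h2bg read 1.59 and 1.46 CPM in ESC replicates 1 and 5 but 1.03 and 0.899 CPM in 2 and 6, 2.05 and 1.87 against 0.999 and 0.819 in Eo-, and 2.08 and 2.02 against 1.03 and 0.977 in Eo+. In each group its spread between libraries was wider than the distance between group means. Hist1h2bc had the same order within groups and still separated ESC from both sorted groups.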
